A study of Drosophila melanogaster with 8 samples.

Results

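Hemocyte identity genes are the transcription factors that specify blood cells in *Drosophila* and the surface and secreted proteins by which mature blood cells are recognised. Sites of cyclin dependent kinase 9 (CDK9) were examined at 10 such genes of 18277 annotated genes. The factors were *srp*, *ush*, *lz* and *gcm*, and the receptor and marker genes were *Pvr*, *Hml*, *Pxn*, *NimC1*, *crq* and *He*. A CDK9 peak belonged to a gene if it touched the gene body or lay within 1500 bp of any annotated start in dm6. By this rule 80 of the 10909 peaks in all lists belonged to these genes, and they merged into 30 of the 5531 regions of the series.

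CDK9 was mapped by chromatin immunoprecipitation and sequencing (ChIP-seq) in Kc167 cells, a female line of embryonic hemocyte origin. Mock cells were nucleofected without RNA, and siAGO2 cells received RNA against Argonaute2 (AGO2), which the labels also call Ago2 knockdown. Both were collected 3 days later, and each had 2 CDK9 libraries and 2 input libraries. The question was whether loss of AGO2 changes where CDK9 is bound. The labels do not say whether the replicates came from separate cultures, so p-values measure only the spread between these libraries.

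Blood cells in flies are made under the control of Serpent (*srp*), a GATA factor, and U-shaped (*ush*), a partner protein that binds GATA factors and tunes their activity. Lozenge (*lz*), a Runx factor, directs precursors to become crystal cells, the cells that melanise wounds, whereas Glial cells missing (*gcm*) favours macrophage-like plasmatocytes and also specifies glia. CDK9 is the kinase of P-TEFb, which releases paused RNA Polymerase II into elongation and is therefore found mainly near active starts.

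The lists held 3103 and 3804 peaks in mock (replicate 1, then 2) and 1707 and 2295 in siAGO2. Depth was taken as the lowest background recovered over the peaks of each list, which stands in for the genome-wide mean of reads per position. It ranged from 0.814 to 2.29, with siAGO2 below mock. The lowest peak of a list held between 5 and 10 reads at its summit. A gene without a peak is thus one at which no site passed the threshold of the caller, and CDK9 below that level was not detectable. Knockdown of AGO2 and RNA levels cannot be read from these lists.

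CDK9 was called in every library at 3 of the 4 blood cell factors and at no receptor or marker gene. *srp*, *ush* and *lz* had a peak in all 4 libraries, as did 7.53% of all genes. None of the 6 receptor and marker genes did, and neither did *gcm*. At least 1 library had a peak at 6 of the 10 genes, as at 30.1% of all genes. *Pvr* had a peak in 3 libraries, *Pxn* in 2 and *He* in 1, while *gcm*, *Hml*, *NimC1* and *crq* had none. In all, *srp*, *ush* and *lz* accounted for 71 of the 80 peaks and the other genes for 9.

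**Figure D1:**
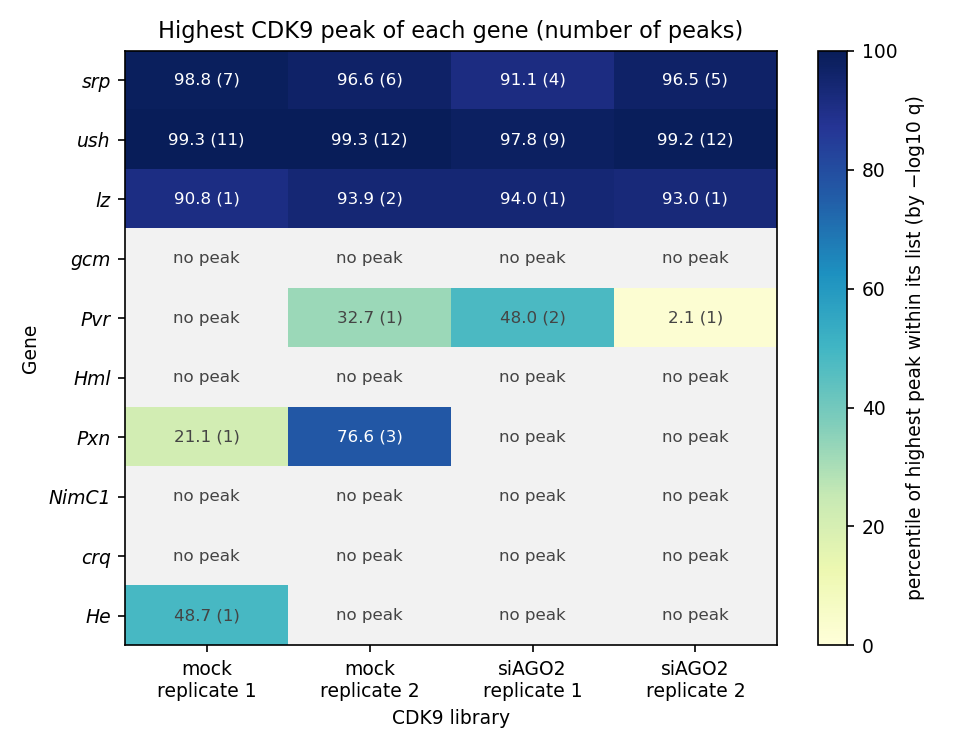
Each cell gives, for 1 gene (row) in 1 CDK9 library (column), the percentile within that library's list of the highest peak of the gene by −log10 q, with the number of its peaks in parentheses. *srp*, *ush* and *lz* lie above percentile 90 in every library, and the other genes are at or below 76.6 or have no peak.

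The highest peaks of *srp*, *ush* and *lz* were above percentile 90 in every list. Ranked by the deposited −log10 q within its own list, the highest peak at *ush* stood at percentile 99.3 in both mock lists and at 97.8 and 99.2 in siAGO2 replicates 1 and 2. The highest peak at *srp* stood at 98.8 and 96.6 in mock and at 91.1 and 96.5 in siAGO2. The highest peak at *lz* stood at 90.8 and 93.9 in mock and at 94.0 and 93.0 in siAGO2. These values are descriptions with no test.

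Gene length differs among the members. The 3 factors with CDK9 in all libraries were long (17934 bp for *srp*, 64341 bp for *ush* and 18988 bp for *lz*, against a median of 1646 bp over all genes), and a long gene offers more sequence in which to hold a peak. Of the 6 members of 10 kb or longer, 3 had a peak in all 4 libraries, where 22.1% of all genes of that length did, and 5 had one in any library, where 56.3% did. Of the 4 shorter members, only *He* had a peak in any library, where 26.9% of shorter genes did. *Pvr* (18899 bp), *Hml* (13948 bp) and *Pxn* (28610 bp) were also longer than 10 kb and had no region shared by all 4 libraries. The part of gene length in these counts was not tested.

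The following stretches of the dm6 plus strand lie under CDK9 summits called in all 4 libraries outside annotated UTRs. Each is the median summit with 100 bp to either side. They are examples, and other such stretches are not shown. Among such stretches of *ush*, that at 484670-484870 held the most matches to GATAA and that at 516536-516736 the most to GAGAG. In the intron stretch before the second start of *ush* (chr2L:484670-484870) capitals mark GATAA, the core of sites for GATA factors, on either strand. In the intron stretch before the 3′ starts of *ush* (chr2L:516536-516736) and in the stretch upstream of *lz* (chrX:9284018-9284218, intergenic) they mark GAGAG, the core of sites for GAGA factor, on either strand.
ush proximal intron: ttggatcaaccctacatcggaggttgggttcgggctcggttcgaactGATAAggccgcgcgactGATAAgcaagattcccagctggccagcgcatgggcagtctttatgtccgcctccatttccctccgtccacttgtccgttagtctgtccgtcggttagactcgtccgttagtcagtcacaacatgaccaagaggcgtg
ush distal intron: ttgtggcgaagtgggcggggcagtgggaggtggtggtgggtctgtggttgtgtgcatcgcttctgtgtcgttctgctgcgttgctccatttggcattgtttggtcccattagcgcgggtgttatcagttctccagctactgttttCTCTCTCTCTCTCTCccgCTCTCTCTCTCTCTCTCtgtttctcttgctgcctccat
lz upstream: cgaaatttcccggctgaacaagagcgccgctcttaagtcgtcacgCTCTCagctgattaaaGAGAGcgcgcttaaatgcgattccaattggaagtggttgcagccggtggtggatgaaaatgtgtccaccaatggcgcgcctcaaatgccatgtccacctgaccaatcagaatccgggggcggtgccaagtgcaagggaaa

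The proximal *ush* intron stretch lies nearer to the start of *cbt*, a gene inside *ush*, than to a start of *ush*. This stretch held 2 matches to GATAA, and none to the other letters searched. The distal one held 13 overlapping matches to GAGAG and 1 match each to GATAA, to GCGGGT and to ACCACA, the core of Runx sites. The *lz* stretch held 2 matches to GAGAG and none to the others. The site at the second *ush* start, which lies in an annotated 5′ UTR and is therefore not printed, held 19 matches to GAGAG in a window of that size.

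Over the 13 member regions called in all 4 libraries, GATAA occurred in 7 (53.8%), against 26.4% of the 1022 such regions in the series and 21.8% of all 5531 regions, in windows of the same length. GAGAG occurred in 8 of the 13 (61.5%), against 63.1% and 37.8%. GCGGGT, the core of sites for Gcm, occurred in 3 of the 13 (23.1%), against 8.32% and 8.24%, and ACCACA in 2 (15.4%), against 8.81% and 10.6%. Both strands were searched and no chance value was computed. The 13 regions lie at only 3 genes, and a match to these letters is not a site.

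At *srp* (FBgn0003507, 3R, 15986152 to 16004085, plus strand), 4 regions were called in all 4 libraries, a number reached or passed by 24 genes (0.131% of all genes). That share is over genes of all lengths, and none was computed for long genes alone. Together the lists held 7 and 6 peaks at *srp* in mock and 4 and 5 in siAGO2. A pair of regions lay before the first start and another pair around the internal start at 15994140. A further internal start, at 15992434, lies before this second pair.

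The upstream region of *srp* had its median summit at -1294 bp, in intergenic sequence. Its fold enrichment, the deposited ratio of reads at the summit to local background, was 7.94 and 11.5 in mock and 8.83 and 8.87 in siAGO2. It rested on 58 and 55 reads in mock and 30 and 29 in siAGO2, and its summits in the 4 libraries lay within 44 bp. The siAGO2 folds thus lay between those of the mock libraries.

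The region next to the first start of *srp* (15985633 to 15986119) was centred at -264 bp. Its fold was 4.70 and 11.7 in mock and 4.49 and 5.53 in siAGO2, so that mock replicate 2 alone was high. In that library a further peak, with a fold of 4.46, lay just inside the gene at 15986566. It lay in the 5′ UTR of *srp* and an exon of *lncRNA:CR44133*, a noncoding RNA that overlaps *srp* on the same strand. This peak was 385 bp from the start of that RNA and 414 bp from the first start of *srp*. The sites at these close starts therefore cannot be given to 1 of the 2 genes.

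The strongest region of *srp* in the deepest library lay inside the gene (15992995 to 15993555), at -836 bp from the start at 15994140. It lay in a 5′ UTR exon of *srp* and in an exon of *lncRNA:CR44133*. Its fold was 10.8 and 12.5 in mock and 9.12 and 13.3 in siAGO2, from 79, 52, 31 and 40 reads. In mock replicate 2 its summit lay 822 bp downstream of the start at 15992434 and was nearest to that start. The next region (15993976 to 15995399) was centred 422 bp downstream of the start at 15994140, in coding sequence. Its fold was 5.31 and 11.2 in mock and 8.20 and 6.76 in siAGO2. The mock and siAGO2 values overlapped at both. In every library but mock replicate 2, both folds were above that of the region next to the first start.

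The remaining sites of *srp* were weak. A region at 15995603 to 15995951 was called in mock only, with folds of 4.35 and 4.07 in replicates 1 and 2. Single calls lay at 15999554 in siAGO2 replicate 2 (fold 3.59) and at 16002611 in mock replicate 1 (fold 3.55). Just beyond the limit of 1500 bp, mock replicates 1 and 2 and siAGO2 replicate 2 had a further peak between 255 and 381 bp away, with folds of 3.72, 3.63 and 4.02.

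*ush* (FBgn0003963, 2L, 476220 to 540560, plus strand) had the most CDK9 peaks of the 10 genes. It had 11 and 12 peaks in mock and 9 and 12 in siAGO2, and 8 of its 12 regions were called in all 4 libraries. Only 2 of 18277 genes (0.0109%) had 8 or more such regions, *Tlk*, which was named after its count was seen, and *ush*. This share is over genes of all lengths, and none was computed for long genes alone. Per kb of gene, *ush* had 0.124 such regions and *srp* 0.223. The regions at 478931 to 481862 and at 484338 to 485099 lay nearest to the start of *cbt*, a gene inside *ush*. *ush* holds other genes, and 3 annotated genes overlap it.

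The highest *ush* region (490454 to 491183) lay at the second annotated start, -89 bp from it, in an exon that is 5′ UTR of *ush*. The noncoding RNA *lncRNA:CR46258* shares this start, so the site cannot be given to one of them. Fold was 8.57 and 16.1 in mock and 9.51 and 13.4 in siAGO2, from 112, 98, 73 and 84 reads at the summit. The 4 summits lay within 25 bp, against a median range of 86 bp over the 1022 regions called in all libraries. The siAGO2 folds again lay between the mock folds.

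The starts of *ush* at 523466 and 523736 had a region (523107 to 523922) centred -62 bp from the nearer one. Its summit held 58 and 62 reads in mock and 31 and 39 in siAGO2, and the siAGO2 folds of 4.72 and 8.47 overlapped those of mock (4.99 in replicate 1 and 10.98 in replicate 2). Within the following 4 kb lay regions 911 bp (524303 to 524995) and 3090 bp (526493 to 527044) downstream of the latter start, both in an intron. Their folds were between 2.56 and 4.51 and between 2.89 and 7.39, and the groups overlapped at both.

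The first start of *ush* had no summit of its own within 1500 bp. The CDK9 signal nearest to it, a broad region (478931 to 481862), was centred -54 bp from the start of *cbt*, which encodes the zinc finger factor Cabut and is transcribed from the opposite strand inside *ush*. Its highest peak had a fold of 6.62 and 15.0 in mock cells and 10.0 and 8.32 in siAGO2. The caller split it differently in each library. Mock replicate 2 had 1 peak of 2829 bp there, and siAGO2 replicate 1 had its highest summit at 481322 whereas that of mock replicate 1 was at 479742. These peaks count for *ush* only because they lie in its body.

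Away from starts, *ush* had intron regions at 484338 to 485099, at 485469 to 486101 and at 516330 to 516990, each in all 4 libraries. The first of them, printed above with its GATAA matches, lay -5082 bp from the start of *cbt* and -6065 bp from the second start of *ush*. It had a fold of 3.49 and 7.54 in mock cells and 3.69 and 6.19 in siAGO2. The second had 4.50 and 4.22 in mock and 3.59 and 4.02 in siAGO2. The third, with the run of GAGAG, had 3.25 and 6.10 in mock and 4.60 and 4.92 in siAGO2. At all but the second of these, both siAGO2 folds lay between the mock folds.

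**Figure D2:**
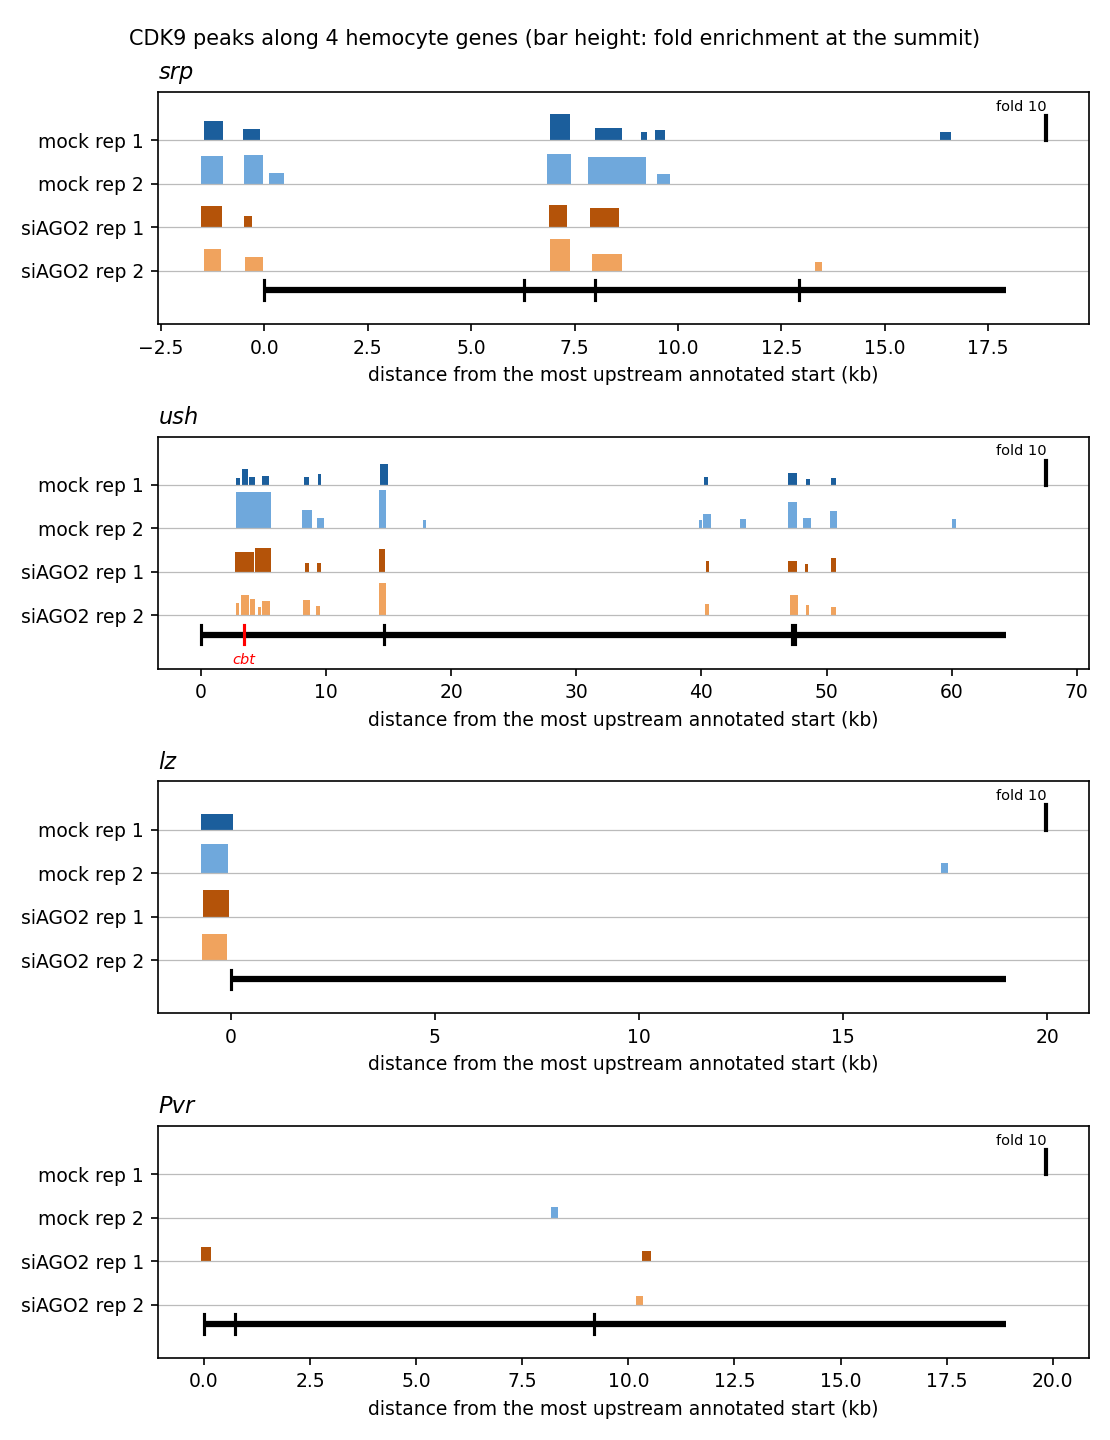
CDK9 peaks along *srp*, *ush*, *lz* and *Pvr* in the 4 libraries, with distance from the most upstream start in kb on the horizontal axis and bar height giving fold enrichment at the summit (scale bar, fold 10). Black lines show the gene and its starts and the red tick the start of *cbt*. The same sites recur in all libraries at *srp*, *ush* and *lz*, and no site does at *Pvr*.

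*lz* (FBgn0002576, X, 9284649 to 9303636, plus strand) showed a different layout, with 1 strong region before its single start and no other region called in more than 1 library. The region (9283913 to 9284695) was centred at -531 bp, in intergenic sequence, with summits within 52 bp. Fold was 6.62 and 12.1 in mock and 10.8 and 10.7 in siAGO2. The summit held 37 reads in mock replicates 1 and 2 and siAGO2 replicate 1 and 32 in siAGO2 replicate 2, although the mock libraries were deeper.

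Genome background was taken as the depth value of each list. The summit at *lz* held 16.1 and 30.5 times that background in mock and 45.5 and 37.1 times in siAGO2. The groups did not overlap. The same was true of the highest region of *ush*, with 48.9 and 80.9 in mock and 89.7 and 97.3 in siAGO2. Both siAGO2 libraries lay above both mock libraries by this measure at 25.0% of the 1022 regions and below them at none, so that 2 of 13 member regions is not above the background. The only other peak at *lz* was in coding sequence in mock replicate 2 (9302174, fold 4.31). Peaks 99 to 135 bp outside the limit of 1500 bp in 3 libraries, with folds between 3.37 and 6.01, lay nearest to a start of the neighbouring gene *c11.1*.

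*gcm* (FBgn0014179, 2L, 9579498 to 9581745), the remaining factor, had no peak in any list. The nearest peak lay between 10348 and 10458 bp beyond its span in 3 libraries, nearest to a start of *brwl*, and 116008 bp away in siAGO2 replicate 1.

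*Pvr* (FBgn0032006, 2L, 8220980 to 8239878), the receptor for PDGF- and VEGF-related factors that guides migration and survival of hemocytes, had only weak and scattered calls. Mock replicate 1 had none. Mock replicate 2 had 1 in an intron (8231622, fold 4.59, 11 reads, percentile 32.7). siAGO2 replicate 1 had 1 at the first start (8239824, fold 6.06, 10 reads, percentile 48.0) and 1 in an intron (8229498, fold 4.39). siAGO2 replicate 2 had 1 in the same intron region (8229674, fold 3.59, 7 reads, percentile 2.11). That intron region was thus called in siAGO2 only. As a gene, *Pvr* also had a mock peak, and none of the 10 members had peaks in siAGO2 alone in both replicates, as 0.109% of all genes did.

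*Pxn* (FBgn0011828, 3L, 2601455 to 2630064), which encodes peroxidasin, an enzyme that crosslinks the extracellular matrix, had peaks in the mock libraries alone. Mock replicate 2 had 1 in coding sequence 165 bp downstream of the second start (2629206, fold 6.42, 22 reads, percentile 76.6), 1 at -67 bp from the first start, in an exon of *lncRNA:CR45660* (2630131, fold 4.02), and 1 farther upstream (2631506, fold 4.61). The last of these lay nearest to the starts of *CG42245* and *MEP-1*. Mock replicate 1 had none of these, and its peak lay far inside the gene (2610745, fold 3.36). No other member had a peak in each mock replicate and none in siAGO2, a pattern of 2.74% of all genes. The mock replicates did not share a site at *Pxn*.

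The other markers had no called CDK9 peak nearest to a start of their own. *He* (2L, 13972096 to 13972947) encodes Hemese, a surface protein of hemocytes. Its only peak, in mock replicate 1 (13971492, fold 3.66), lay in coding sequence of the neighbouring *NimB5*, nearest to the start of that gene. *Hml* (3L, 13846054 to 13860001) encodes the clotting protein Hemolectin, and the nearest peak lay 2538 and 2486 bp beyond its span in mock and 59768 and 59787 bp in siAGO2. *NimC1* (2L, 13973158 to 13976769), a receptor for phagocytosis of bacteria, had no peak, and the nearest lay 1581 bp beyond its span in mock replicate 1 and at least 43349 bp beyond it in the other libraries. *crq* (2L, 448254 to 453024), a scavenger receptor of the CD36 family that takes up dying cells, had its nearest peaks between 16284 and 24536 bp away.

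Next, the genes were compared between groups. Of the 10 genes, 5 had a peak in each mock library and 4 in each siAGO2 library, where the shares of all genes were 18.6% and 23.0% in mock and 10.8% and 14.9% in siAGO2. Among genes of 10 kb or longer the shares were 43.6% and 43.5% in mock and 27.1% and 33.1% in siAGO2. The difference of -1 gene gave p = 0.333 (exact permutation test, two-sided), the lowest value possible with 2 libraries a group, so this design cannot reach 0.05. When only peaks nearest to a start of the gene itself were counted, the numbers were 3, 5, 4 and 4, and the difference was 0. The genes so lost in mock replicate 1 were *He*, whose peak lay in *NimB5*, and *Pxn*, whose peak lay in coding sequence far inside the gene.

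The number of peaks at the 10 genes was 21 and 24 in mock and 16 and 19 in siAGO2. The means were 22.5 ± 2.12 and 17.5 ± 2.12 (SD, n = 2), a ratio of 0.778 (exact permutation test, two-sided, p = 0.333, the smallest possible). Of the 80 peaks in all lists, 12 lay in the region at the start of *cbt*, which the caller split differently in each library. With only peaks nearest to a start of the gene itself, the counts were 14 and 17 in mock and 13 and 13 in siAGO2. The ratio was then 0.839. The whole lists were shorter after AGO2 knockdown too. When lists were trimmed to equal length by −log10 q, the counts were 19 and 14 in mock and 16 and 16 in siAGO2, the ratio was 0.970, and the groups overlapped.

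To ask whether sites of these genes changed their place in the order of CDK9 sites, ranks by −log10 q were compared over the 1022 regions that every library shared. They were expressed as normal scores, for which 0 is the middle of the order and 1 is 1 SD above it. The median score of the member regions was above the middle, at 0.670 in mock and 0.571 in siAGO2, as against -0.0364 and -0.0847 over all 1022. Single member regions lay on both sides of the middle, with means from -1.25 to 2.01 in mock and from -1.20 to 1.94 in siAGO2.

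None of the 1022 regions that every library shared differed between groups after adjustment (limma, Benjamini-Hochberg, 0.0% called, smallest adjusted p = 0.671). Regions missing from a list were not in this fit, which held 13 of the 30 member regions. Before adjustment 66 were under 0.05, none of them at the 10 genes. The lowest difference at a member was at the intron region of *ush* at 485469 to 486101, with a difference of -0.698 ± 0.482 (SE). It was -0.106 without mock replicate 1 and -1.29 without mock replicate 2. The difference at the first start of *srp* was -0.600 ± 0.468, and it was -1.09 without mock replicate 1 and -0.110 without mock replicate 2. That upstream of *srp* was -0.330 ± 0.356. The highest region of *ush* differed by -0.0641 ± 0.362 and by 0.0880 without siAGO2 replicate 1. *lz* differed by 0.471 ± 0.362, and none passed adjustment (limma, adjusted p = 0.910 for the *lz* region and 0.910 or more for the others).

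Differences were below 0 at 11 of the 13 member regions (median -0.264) and at 515 of the 1022 regions (median -0.00951). Without mock replicate 2 they were below 0 at 7 of the 13 and at 523 of the 1022, and without each other library at 9 to 11 of the 13. The 11 lie at *srp* and *ush* alone, and regions of one gene are not independent. Both siAGO2 scores lay below both mock scores at 3 member regions (the upstream region of *srp*, the *cbt* region and 485469 to 486101 of *ush*) and above them at 1 (*lz*), against 16.4% and 17.6% of all 1022 regions.

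**Figure D3:**
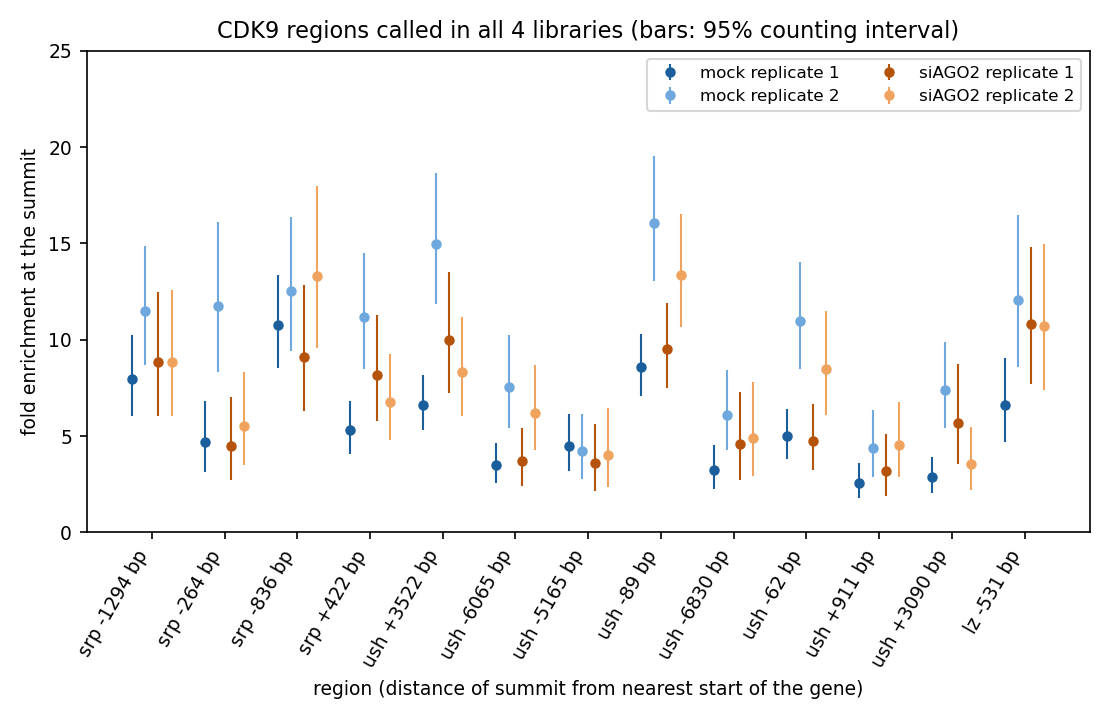
Fold enrichment at the summit (vertical axis) of the 13 regions called in all 4 libraries, named by gene and by distance of the median summit from the nearest start of that gene. Points are libraries and bars 95% Poisson intervals of the summit reads, which cover counting error only; mock replicate 2 is highest at 10 of 13 regions and mock replicate 1 lowest at 9.

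The mock replicates lay at opposite ends of the fold values. Mock replicate 2 had the highest fold of the 4 libraries at 10 of the 13 member regions and mock replicate 1 the lowest at 9, as at 51.6% and 59.9% of all 1022 regions. The median fold over the 13 regions was 4.99 and 11.2 in mock and 5.70 and 6.76 in siAGO2, as against 4.99, 7.47, 6.17 and 6.49 over all 1022. Depth also differed between these libraries, with mock replicate 1 the deepest, and its part in the order of folds was not tested.

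Finally, further genes of blood cells were examined from lists by role. Of 20 other factors and partners of blood cell development, 14 and 9 had a peak in mock and 6 in each siAGO2 library, and 4 had one in all 4 libraries (20.0%, as against 7.53% of all genes). All 4 were among the 13 genes of the list of 10 kb or longer, and 22.1% of all genes of that length had a peak in all 4 libraries. These were *ttk*, *pnt* and *zfh1*, which encode DNA-binding factors, and the receptor *N*, at which the peak was nearest to its own start in 2 libraries only. The highest peak at *ttk* had a fold of 23.2 and 46.1 in mock cells and 23.7 and 36.8 in siAGO2, that at *pnt* 8.89 and 18.7 in mock and 12.3 and 12.7 in siAGO2, and that at *zfh1* 6.37 and 15.1 in mock and 11.5 and 11.1 in siAGO2. Of the other GATA genes, *grn* and *pnr* had a peak in 3 libraries each and *GATAd* and *GATAe* in none. The highest peak stood at percentiles between 31.7 and 72.8 at *grn* and between 20.8 and 41.3 at *pnr*. The Runx genes *run*, *RunxA* and *RunxB* had a peak in mock replicate 1 alone.

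Among 21 further receptor and surface genes of hemocytes, 7 and 4 had a peak in mock and 3 in each siAGO2 library. At least 1 library had a peak at 33.3% of them, as at 30.1% of all genes, and 14 had none. A peak in all 4 was seen at 2 genes (9.52%, as against 7.53% of all genes). Those were *pes*, a scavenger receptor of the family of *crq*, and *Dscam1*, an immunoglobulin receptor. *eater*, *drpr* and the 4 *Sr-C* genes had no peak. Of 8 secreted and matrix genes, *LanA* alone had a peak in all libraries (12.5%, as against 7.53% of all genes). The collagen IV genes *Col4a1* and *vkg* share the peaks between them, in 1 library of each group. Of the 3 ligands of *Pvr*, *Pvf1* had a peak in all 4 libraries (33.3%, as against 7.53% of all genes). Its folds were 5.43 and 10.9 in mock cells and 7.62 and 5.66 in siAGO2, while *Pvf2* and *Pvf3* had 1 library each.

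Of 6 genes of crystal cells and lamellocytes, the 3 prophenoloxidase genes *PPO1*, *PPO2* and *PPO3* had no peak. These genes mark the mature crystal cell and lamellocyte. *msn* and *mys* had a peak in all 4 libraries (33.3% of the list, as against 7.53% of all genes). At *mys* the peak was nearest to a start of the gene itself in 1 library only. Markers of neurons, glia, muscle, germ line, fat body and trachea were read in the same way. Of these 21 genes, 7 and 5 had a peak in mock and 3 and 4 in siAGO2, and 13 had none. A peak in all libraries was seen at 3 (14.3%, as against 7.53% of all genes). These were *moody*, *Mef2* and *bgcn*, the last nearest to its own start in 1 library only. CDK9 in all libraries was therefore not confined to hemocyte genes. Of the 6 hemocyte receptor and marker genes, *Pvr*, *Pxn* and *He* had a peak in 1 to 3 libraries. The others, *Hml*, *NimC1* and *crq*, had none, where 30.1% of all genes had a peak in at least 1 library.

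**Figure D4:**
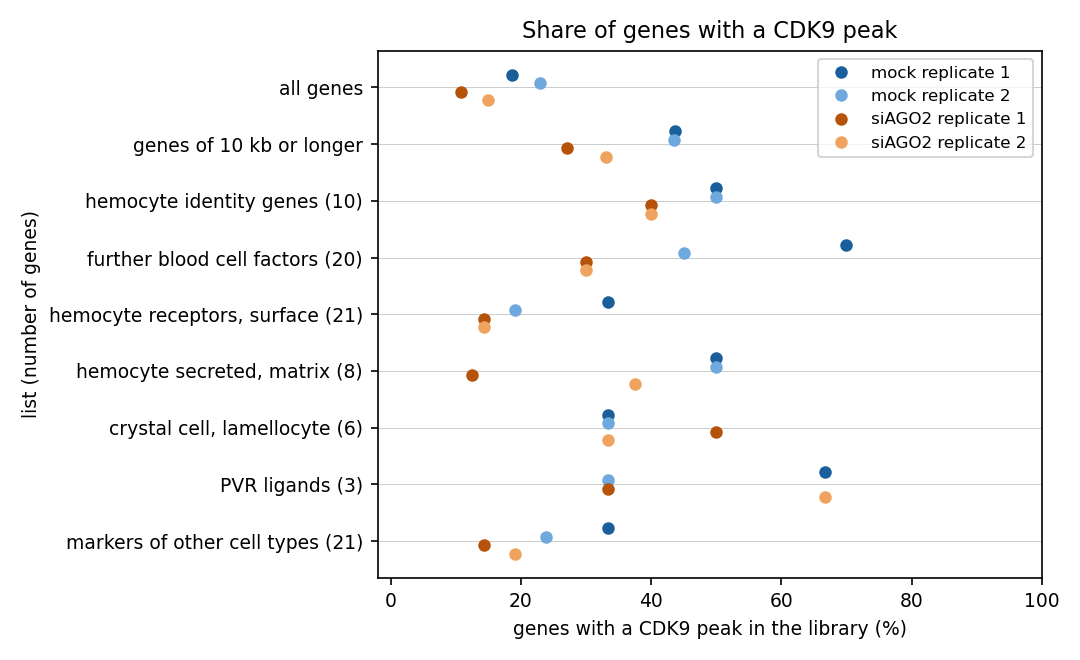
Share of genes with a CDK9 peak (horizontal axis, %) in each of the 4 libraries, for all genes, for genes of 10 kb or longer and for each list, with the number of genes in parentheses. The 10 hemocyte identity genes are at 50.0% in mock and 40.0% in siAGO2, and genes of 10 kb or longer at 27.1% to 43.6%.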

How the data were processed

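Per the labels and the methods of the study, the authors trimmed reads with cutadapt (1.10 by the processing notes), aligned them to dm6 with bowtie2, removed multimapping reads and PCR duplicates, and called punctate peaks with MACS2 2.1.1.20160309 for each replicate with its input. MACS2 settings for CDK9 are not given in the sources used here. Removal of multimapping reads lowers coverage of repeats, and the length of a list depends on depth. The deposited columns hold a fold enrichment (ratio of summit to local background), −log10 p and −log10 q values, a score made from the −log10 q and the summit offset. No inputs were used other than through this background.

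Genes and starts were those of Ensembl release 115 on dm6, and sequences were read from RefSeq release 6 of the same assembly. Overlap of 1 bp assigned a peak to a gene and merged peaks of the 4 lists into regions. Whole reads at a summit (up to 599 tried) and background were solved from the deposited fold, with a pseudocount of 1, and −log10 p under a Poisson model, with a solution within 0.0005 for 100% of peaks. Intervals are exact Poisson at 95% and cover counting error only. Counts were compared by exact permutation tests, and normal scores of ranks by limma 3.58.1 in R 4.3.3 with Benjamini-Hochberg adjustment, called at 0.05. Scripts were tested on simulated data. All 10 genes were to be named, with the genes of the further lists. The members and lists were chosen with earlier results of these data known. Of the markers of other cell types, 21 were matched by symbol. A further sequence is not reported here.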

Additional observations from a re-analysis of the deposited data

How the results depend on the processing

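The lower numbers of genes and peaks in siAGO2 cells kept their direction under each alternative run except that, with only peaks nearest a start of the gene itself, the difference in genes was 0.0. Since no exact test of 2 libraries against 2 can pass 0.05, this says nothing about significance. Without each library in turn, the difference in genes was -1.0 throughout and the ratio of peaks lay between 0.711 and 0.844. By window (500 bp with the body, the body alone, 1500 bp around starts alone) the differences in genes were -0.5, -1.5 and -0.5 and the ratios of peaks 0.805, 0.763 and 0.833. *lz* had a peak in 2 libraries by its body alone, since its site lies upstream. With peaks above the median −log10 q or the same number from each list, *Pvr* kept a peak in 0 or 1 libraries and *Pxn* in 1. Neither labels nor methods say that the replicate number marks a shared culture or day, so the numbers were not taken to pair samples. Libraries of the same replicate number did not deviate together (r = 0.00101 over 1022 regions). A fit with the replicate block called 2 regions of the series, neither at a member, where the fit without it called 0 (limma; 78 and 66 before adjustment at 0.05). Under the block the ratio of peaks was 0.777 and the difference in genes -1.0 (exact sign-flip permutation, p = 0.5, the smallest possible). Rank differences of single member regions rested on single libraries in part, and 7 to 11 of the 13 were below 0 without each library in turn. Other fits of ranks, by fold, by plain percentile, in at least 3 libraries, with an overlap of 50% and without each library, called 0 regions, with 43 to 96 at an unadjusted p under 0.05. Depth limits what a missing peak can show.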
